A study of Rattus norvegicus with 27 samples.

Results

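Cyclic nucleotide phosphodiesterases were followed through the differentiation and dedifferentiation of cultured rat Schwann cells, the glia that ensheathe and myelinate peripheral axons. The set held 10 genes, matched by gene name among the 17315 rows of the cell mRNA table: *Pde7b*, *Pde7a*, *Pde4a*, *Pde4b*, *Pde4d*, *Pde10a*, *Pde3a*, *Pde3b*, *Pde8a* and *Pde1a*. The genes were chosen with their levels in these same 9 libraries known. Their levels and differences are therefore given as a description, without a test. Primary rat Schwann cells from a commercial supplier, used at passages 3 to 5, were sampled at 3 stages, each with 3 libraries labelled as biological replicates. Dibutyryl cyclic AMP (dbcAMP), a membrane-permeable analogue of cyclic AMP, was withheld from undifferentiated cells, whose medium the labels do not describe further. Differentiated cells were held for 72 h in 1 mM dbcAMP in medium with 1% vesicle-depleted serum. Dedifferentiated cells had the same treatment and then 72 h without dbcAMP in a complete medium with 10% vesicle-depleted serum, neuregulin and forskolin, an activator of adenylyl cyclase. Before dbcAMP, the cells had been kept in that complete medium and then overnight in the low-serum medium. Between differentiated and dedifferentiated cells, dbcAMP, serum, neuregulin, forskolin and time in culture thus changed together and cannot be told apart. Since the undifferentiated medium is not described, dbcAMP and other differences from that stage cannot be told apart either. The terms "under dbcAMP" and "on withdrawal" below name the stages compared and not the agent alone. The labels do not say whether replicates came from separate animals or cell lots, so p-values measure the spread between these samples, which may be partly technical.

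Phosphodiesterases break down cyclic AMP and cyclic GMP, and so set how far and how long these messengers act. Mammals carry several families that differ in substrate: the PDE4, PDE7 and PDE8 families are specific for cyclic AMP, PDE1, PDE2, PDE3, PDE10 and PDE11 act on both nucleotides, and PDE5, PDE6 and PDE9 prefer cyclic GMP. In Schwann cells a sustained rise in cyclic AMP is a well-known trigger of the myelin programme, and dbcAMP is used in culture for that purpose.

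Libraries held 10058735 to 16212278 estimated counts. Levels are given as CPM, counts scaled to the column total of the library, and 3 counts corresponded to 0.185 to 0.298 CPM depending on the library. CPM is not divided by transcript length, so levels are compared between stages and not between genes. The Schwann cell markers *Sox10*, *S100b*, *Ngfr*, *Erbb3* and *Cdh19* were present at every stage. The mean level of *Sox10*, the lineage transcription factor, was 1339, 1045 and 1458 CPM from the first stage to the last, and that of *Cdh19* was 250.3, 51.2 and 291 CPM. Fibroblast markers summed to 24363 to 29063, 11923 to 15585 and 15934 to 19351 CPM at the 3 stages. That sum was made up almost entirely of the collagens *Col1a1* and *Col1a2*, while *Lum* had no counts and *Dcn* and *Pdgfra* stayed under 1 CPM in every library. Pericyte markers summed to 121 to 153, 539 to 806 and 320 to 344 CPM, mostly from *Pdgfrb*, with *Rgs5* at 0. Endothelial markers reached 3.08, 8.26 and 7.88 CPM with *Cdh5* at 0, macrophage markers 1.64, 5.09 and 3.39 CPM with *Aif1* at 0, and neuronal markers 74.5, 41.8 and 57.8 CPM, nearly all from *Tubb3*. The part of these sums in the results below was not tested.

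RefSeq promoter windows on assembly GRCr8, which run from 250 bases before to 50 after an annotated start, were found for 7 of the 10 genes and comprised 16 windows, with none for *Pde7b*, *Pde7a* and *Pde3b*. They were searched for the cyclic AMP response element TGACGTCA, the site bound by CREB, and on both strands for TGACG, its core, which the full site also contains. No window of these genes held the full element, which 1.83% of all 33469 windows held. The core was found in 6 of the 16 windows, belonging to 4 genes (*Pde4a*, *Pde4d*, *Pde10a* and *Pde8a*), and in 21.2% of all windows. The windows of *Pde3a*, *Pde4b* and *Pde1a* did not hold it. It was found in 0 of the 11 windows of the 8 other phosphodiesterase genes with a window. The letters TATAAA, the TATA box, were found on the gene strand in 0 of the 16 windows and in 8.8% of all windows. A match describes the sequence and is not evidence of a bound site. Shown are the windows with the core of *Pde4d* and *Pde10a*, which were high under dbcAMP, and of *Pde8a*, which was nearly level, 5′ to 3′ on the gene strand with the core in capitals.
Pde4d window 3, chr2:42592499-42592798, plus strand: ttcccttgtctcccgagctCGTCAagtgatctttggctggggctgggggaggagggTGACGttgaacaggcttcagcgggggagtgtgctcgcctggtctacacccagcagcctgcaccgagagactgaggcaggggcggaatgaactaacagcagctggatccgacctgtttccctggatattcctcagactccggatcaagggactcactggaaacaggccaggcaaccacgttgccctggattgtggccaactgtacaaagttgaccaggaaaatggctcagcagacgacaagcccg
Pde4d window 4, chr2:42767367-42767666, plus strand: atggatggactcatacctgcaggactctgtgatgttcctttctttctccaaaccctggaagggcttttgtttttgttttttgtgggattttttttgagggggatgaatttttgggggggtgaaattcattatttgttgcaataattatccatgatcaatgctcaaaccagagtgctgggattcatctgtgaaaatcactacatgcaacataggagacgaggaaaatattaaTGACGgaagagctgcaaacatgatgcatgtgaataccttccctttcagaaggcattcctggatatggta
Pde10a window 1, chr1:54765619-54765918, minus strand: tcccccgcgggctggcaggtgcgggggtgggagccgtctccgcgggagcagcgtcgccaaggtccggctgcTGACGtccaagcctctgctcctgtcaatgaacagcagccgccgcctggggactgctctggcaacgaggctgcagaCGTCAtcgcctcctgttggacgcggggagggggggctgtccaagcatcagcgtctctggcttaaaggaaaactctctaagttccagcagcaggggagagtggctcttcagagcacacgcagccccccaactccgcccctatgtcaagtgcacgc
Pde8a window 1, chr1:144575219-144575518, plus strand: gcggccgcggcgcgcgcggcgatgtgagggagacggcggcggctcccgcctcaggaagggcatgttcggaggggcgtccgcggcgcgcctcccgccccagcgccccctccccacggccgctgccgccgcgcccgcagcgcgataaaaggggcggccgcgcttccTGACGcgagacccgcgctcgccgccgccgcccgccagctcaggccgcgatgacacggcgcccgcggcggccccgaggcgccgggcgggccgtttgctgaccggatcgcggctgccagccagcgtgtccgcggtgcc
Counted in bases from the start, the *Pde10a* window held the core at -179 and, on the other strand, at -104. The *Pde4d* windows held it at -194 and, on the other strand, at -231 in window 3 and at -19 in window 4, and that of *Pde8a* held it at -86. Counts were summed per gene, so the start used by the transcripts measured here was not analysed.

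Of the 10 genes, 6 were higher in every differentiated library than in every undifferentiated library (*Pde7b*, *Pde3a*, *Pde4d*, *Pde10a*, *Pde4b* and *Pde4a*), and 1 was lower in every one, *Pde7a*. The same separation held for 38.9% of all 10372 tested genes in the upward and 27.4% in the downward direction, and since the genes were chosen on this contrast the counts describe the set only. Of the 10 genes, 9 passed the filter on low counts. The libraries are bulk samples, so fewer cells expressing a gene and less of its RNA per cell cannot be told apart. *Pde3a* passed it through the differentiated libraries alone, so it had to differ, and *Pde1a* did not pass.

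**Figure D1:**
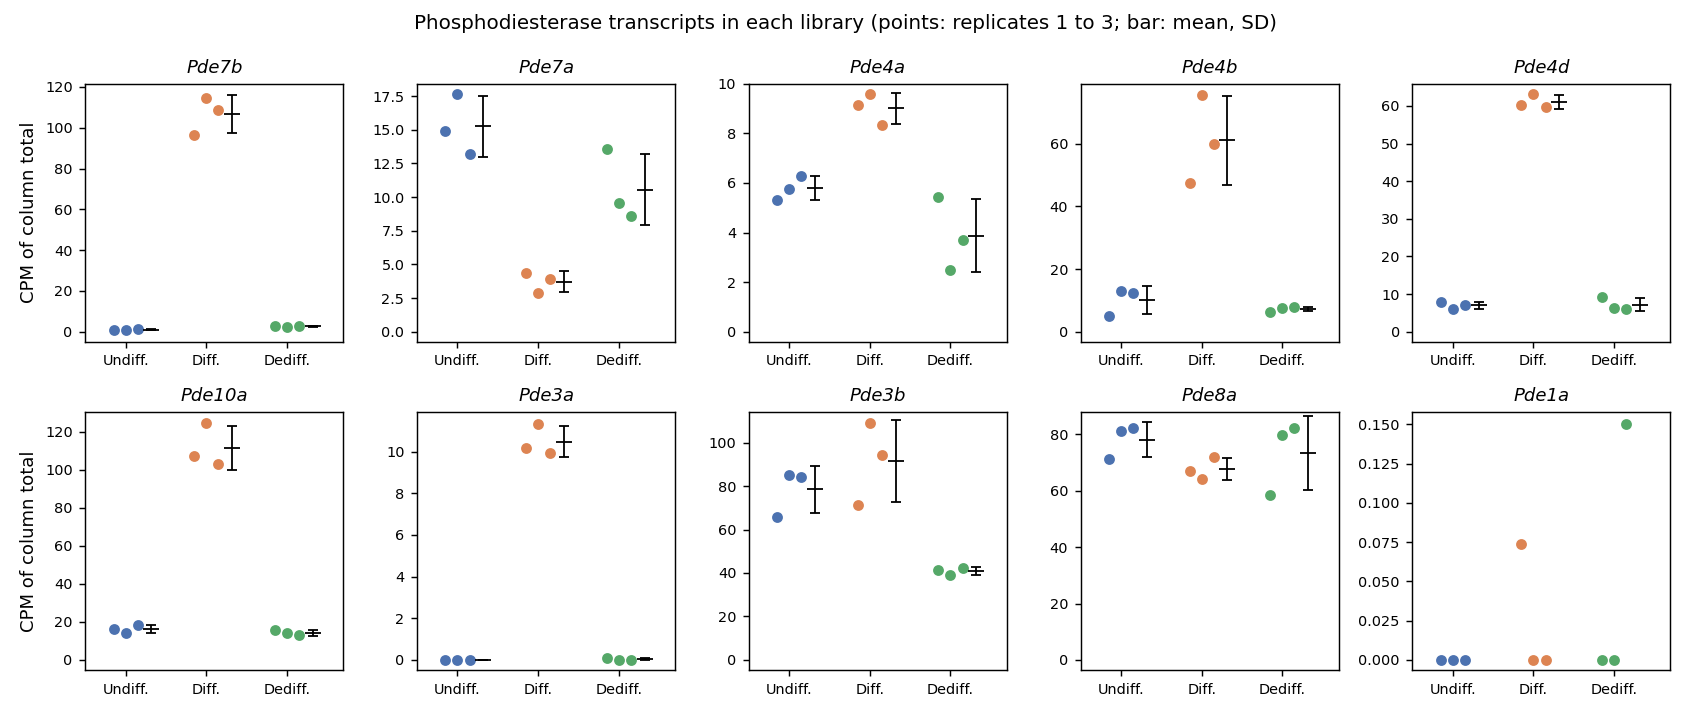
Level of each of the 10 genes in CPM of the column total (vertical axis, from 0, a separate scale per gene) in undifferentiated, differentiated and dedifferentiated cells. Points are the 3 replicates in order and bars the mean and SD, left out for *Pde1a*; *Pde7b*, *Pde4b*, *Pde4d*, *Pde10a* and *Pde3a* stand high in differentiated cells alone, *Pde7a* stands low there, and *Pde8a* is nearly level.

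The PDE7 family is specific for cyclic AMP and had both its genes in the set. *Pde7b* encodes a high-affinity cyclic AMP hydrolase. It measured 0.806, 0.769 and 1.31 CPM in undifferentiated replicates 1 to 3, 96.3, 114 and 109 CPM in differentiated cells, and 2.80, 2.19 and 2.86 CPM in dedifferentiated cells. The 3 groups did not overlap: the gene was near the limit of detection without dbcAMP, abundant under it, and after withdrawal low again but above every undifferentiated library. The stage means were 0.961 ± 0.301, 107 ± 9.31 and 2.61 ± 0.371 CPM (SD, n = 3). The fitted differences were 102-fold (log2 6.68, SE 0.17) under dbcAMP and -5.32 on the log2 scale (SE 0.15) on withdrawal, which left dedifferentiated cells 2.56-fold above undifferentiated cells (log2 1.36, SE 0.22). Of the log2 change under dbcAMP, a share of 0.203 was kept.

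Its paralogue *Pde7a*, which encodes the other cyclic AMP-specific enzyme of the family, had the opposite order of levels. It measured 14.9, 17.7 and 13.2 CPM in undifferentiated, 4.35, 2.86 and 3.95 CPM in differentiated, and 13.6, 9.54 and 8.57 CPM in dedifferentiated cells. Every differentiated library lay below every other library, while undifferentiated and dedifferentiated libraries overlapped. The means were 15.3 ± 2.26, 3.72 ± 0.772 and 10.6 ± 2.65 CPM (SD, n = 3). The fitted differences were -2.09 on the log2 scale (SE 0.24) under dbcAMP, 1.51 (SE 0.24) on withdrawal and -0.58 (SE 0.22) between dedifferentiated and undifferentiated cells. Differentiated cells thus had the highest level of *Pde7b* and the lowest of *Pde7a*.

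The PDE4 family, the cyclic AMP-specific enzymes inhibited by rolipram, had 3 genes in the set. *Pde4d* measured 7.98, 6.06 and 7.00 CPM in undifferentiated, 60.3, 63.1 and 59.8 CPM in differentiated, and 9.16, 6.36 and 6.09 CPM in dedifferentiated cells. The differentiated libraries lay close together and far above the rest, and the other stages overlapped. The means were 7.01 ± 0.961, 61.0 ± 1.77 and 7.20 ± 1.70 CPM (SD, n = 3). The fitted difference under dbcAMP was 8.30-fold (log2 3.05, SE 0.17), and that between dedifferentiated and undifferentiated cells was -0.01 on the log2 scale (SE 0.18).

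*Pde4b*, whose product is a main regulator of cyclic AMP in inflammatory signalling, was also highest in differentiated cells, with more spread. It measured 5.00, 13.0 and 12.4 CPM in undifferentiated, 47.5, 75.6 and 60.0 CPM in differentiated, and 6.36, 7.46 and 7.90 CPM in dedifferentiated cells. Undifferentiated replicate 1 was the lowest of all 9 libraries, below the dedifferentiated ones, so those 2 stages overlapped. The means were 10.1 ± 4.44, 61.1 ± 14.1 and 7.24 ± 0.793 CPM (SD, n = 3), and the fitted difference under dbcAMP was 5.80-fold (log2 2.54, SE 0.28). On withdrawal it was -3.06 on the log2 scale (SE 0.29).

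*Pde4a* differed least of the PDE4 genes. It measured 5.32, 5.77 and 6.28 CPM in undifferentiated, 9.14, 9.57 and 8.33 CPM in differentiated, and 5.43, 2.49 and 3.69 CPM in dedifferentiated cells. The differentiated libraries did not overlap the others, but the fitted difference was 1.49-fold (log2 0.58, SE 0.24). Dedifferentiated cells, at 3.87 ± 1.48 against 5.79 ± 0.482 CPM (SD, n = 3), had 2 libraries below and 1 within the undifferentiated range. The fitted difference between these stages, -0.62 on the log2 scale (SE 0.26), became -0.97 without dedifferentiated replicate 1. Over all fits that left out a library it ranged from -0.97 to -0.43.

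Among the enzymes that act on both nucleotides, *Pde10a*, best known from striatal neurons, was also highest in differentiated cells. It measured 16.2, 14.0 and 18.1 CPM in undifferentiated, 107, 125 and 103 CPM in differentiated, and 15.9, 13.9 and 12.9 CPM in dedifferentiated cells. The differentiated libraries stood apart and the other stages overlapped. The means were 16.1 ± 2.05, 111 ± 11.7 and 14.2 ± 1.52 CPM (SD, n = 3), and the fitted difference under dbcAMP was 6.60-fold (log2 2.72, SE 0.12). Between dedifferentiated and undifferentiated cells it was -0.24 on the log2 scale (SE 0.13).

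*Pde3a* and *Pde3b* encode the PDE3 enzymes, which cyclic GMP inhibits. *Pde3a* had 0 counts in every undifferentiated library and 138, 147 and 161 counts in differentiated replicates 1 to 3. In CPM the differentiated replicates 1 to 3 measured 10.2, 11.3 and 9.93. In dedifferentiated cells a single count was found, in replicate 1, with 0 in both others. The gene was therefore seen under dbcAMP and at or under the level of 3 counts elsewhere. Its mean in differentiated cells, 10.5 ± 0.757 CPM (SD, n = 3), was at least 36.3-fold higher than 3 counts in the shallowest undifferentiated library. Pooled over libraries, it was 367-fold above dedifferentiated cells, with an exact 95% counting interval of 65.5 to 14518, which covers counting error alone.

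*Pde3b* behaved otherwise. It measured 65.9, 85.2 and 84.2 CPM in undifferentiated, 71.3, 109 and 94.4 CPM in differentiated, and 41.5, 39.0 and 42.5 CPM in dedifferentiated cells. Undifferentiated and differentiated libraries overlapped, with a fitted log2 difference of 0.16 (SE 0.14). Every dedifferentiated library lay below every other library: its fitted difference was -1.14 (SE 0.14) from differentiated and -0.98 (SE 0.14) from undifferentiated cells on the log2 scale. *Pde3b* was the 1 gene of the set below all undifferentiated libraries after withdrawal, and *Pde7b* the 1 gene above all of them. *Cyp2r1* overlaps *Pde3b* in RefSeq and also has a row, and how reads in the overlap were assigned is not given in the sources used here.

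*Pde8a*, a high-affinity cyclic AMP hydrolase that most general phosphodiesterase inhibitors spare, was the steadiest gene of the set. It measured 71.1, 81.0 and 82.2 CPM in undifferentiated, 67.0, 64.1 and 72.0 CPM in differentiated, and 58.3, 79.6 and 82.2 CPM in dedifferentiated cells. All 3 stages overlapped, and the fitted log2 differences were -0.27 (SE 0.12), 0.13 (SE 0.12) and -0.14 (SE 0.12) under dbcAMP, on withdrawal and from the first stage to the last. *Pde1a*, a calcium- and calmodulin-dependent enzyme, had 3 counts in all: 1 in differentiated replicate 1 and 2 in dedifferentiated replicate 3. At this depth it was not distinguishable from absent at any stage, and no fold is given.

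On withdrawal, 7 of the 10 genes were lower in every dedifferentiated than in every differentiated library, 1 was higher (*Pde7a*) and 2 overlapped (*Pde8a* and *Pde1a*). Over all tested genes 30.2% were separated downward and 28.3% upward. Between dedifferentiated and undifferentiated cells 8 of the 10 overlapped, 1 was higher and 1 lower, where 26.8% of all tested genes were separated upward and 17.1% downward. These contrasts share libraries, so each gene's values stand side by side and are not independent. Replicate 3 of each stage belongs to another project than replicates 1 and 2. In TMM-scaled log2 CPM the difference of *Pde7b* under dbcAMP was 6.18 in the project of replicate 3 (1 library a stage). It was 6.74 in that of replicates 1 and 2 (2 a stage). For *Pde4d* it was 3.03 and 3.05, for *Pde10a* 2.46 and 2.85, for *Pde4b* 2.23 and 2.80, and for *Pde4a* 0.36 and 0.67.

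**Figure D2:**
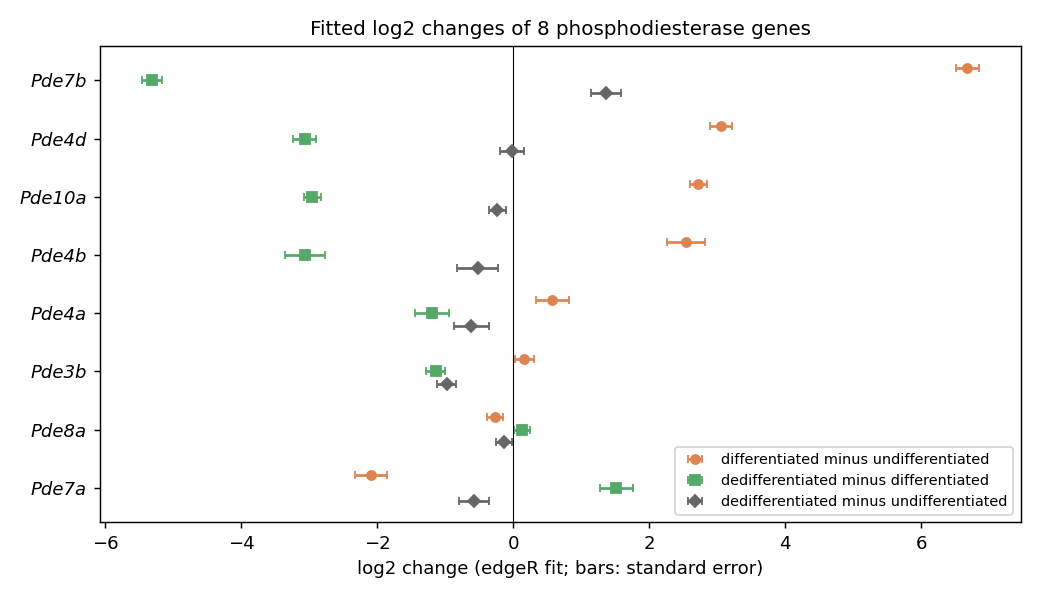
Fitted log2 change of 8 genes (horizontal axis) in the 3 pairwise contrasts of stages, with bars for the standard error; *Pde3a* and *Pde1a* are left out because their counts outside differentiated cells were at or near 0. *Pde7b* reaches 6.68 under dbcAMP and *Pde7a* -2.09, and the dedifferentiated minus undifferentiated points of *Pde4d* and *Pde10a* lie near 0.

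The genes with profiles most like *Pde7b* and *Pde3a*, the 2 of widest range in log2 CPM with a prior count of 2, were looked up among all tested genes by Pearson's correlation of log2 CPM over the 9 libraries. These r values rest on the 3 stages the libraries share and are descriptions. For *Pde7b* they were *Caprin1* (0.996), *Picalm* (0.996) and *Htra1* (0.995), although their own levels moved far less: the stage means of *Htra1*, a secreted serine protease, were 528, 1676 and 643 CPM. For *Pde3a* they included *Chrm1* (0.998), a muscarinic receptor gene, and *Rasgrp4* (0.998). Their means in differentiated cells were 2.51 and 1.36 CPM, with no counts in undifferentiated cells.

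The rest of the family was taken from a list of 14 further phosphodiesterase genes, of which 13 had a row and 4 passed the filter. These were tested with edgeR's quasi-likelihood test with Benjamini-Hochberg adjustment over all 10372 genes. Under dbcAMP 3 fell (*Pde1c*, *Pde2a* and *Pde5a*) and 1 rose (*Pde6d*), where 27.9% of all tested genes were called lower and 31.7% higher. On withdrawal *Pde1c*, *Pde2a* and *Pde5a* rose and 0 fell, where 23.2% of all tested genes were called in each direction. The median log2 change of the 4 genes was -1.72 under dbcAMP and 1.74 on withdrawal, beside 0.05 and -0.01 for all tested genes. This list is what the choice of the set left over, and that choice was made with levels in these libraries known. Its directions and medians therefore describe the 4 genes and cannot test the direction of the family. Their adjusted p-values were not corrected for that choice. The lists below were also chosen with earlier results of these data known.

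*Pde1c*, a calmodulin-dependent enzyme with high affinity for both nucleotides, measured 116, 149 and 141 CPM in undifferentiated, 13.1, 13.2 and 15.2 CPM in differentiated, and 148, 132 and 137 CPM in dedifferentiated cells. The differentiated libraries were far below the others, which overlapped. It fell under dbcAMP by 3.34 on the log2 scale (SE 0.11, edgeR adjusted p = 4.16e-09) and rose on withdrawal by 3.34 (SE 0.11). From the first stage to the last no change was called (log2 -0.01, SE 0.10, edgeR adjusted p = 0.963).

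*Pde5a*, the cyclic GMP-specific enzyme targeted by sildenafil, measured 6.69, 9.61 and 8.64 CPM in undifferentiated, 2.87, 2.93 and 2.65 CPM in differentiated, and 5.60, 6.86 and 7.07 CPM in dedifferentiated cells. It fell by 1.62 on the log2 scale (SE 0.20, edgeR adjusted p = 5.75e-05) and rose by 1.22 on withdrawal (SE 0.21). *Pde2a*, which cyclic GMP stimulates to break down cyclic AMP, measured 2.74, 4.33 and 4.58 CPM, then 0.295, 0.849 and 2.16 CPM, then 5.76, 4.87 and 5.49 CPM at the same stages. Its log2 change was -1.83 under dbcAMP (SE 0.49, edgeR adjusted p = 0.00768) and 2.26 on withdrawal (SE 0.48, edgeR adjusted p = 0.00329). Differentiated replicate 3 was the highest of its stage, and without it these values were -2.80 and 3.23. Over all fits that left out a library they ranged from -2.80 to -1.40 and from 1.83 to 3.23.

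*Pde6d*, a prenyl-binding chaperone named for its association with the photoreceptor enzyme rather than a hydrolase, measured 34.4, 40.8 and 36.2 CPM in undifferentiated, 45.5, 47.5 and 46.4 CPM in differentiated, and 47.9, 50.8 and 49.0 CPM in dedifferentiated cells. Its rise under dbcAMP was small (log2 0.26, SE 0.08, edgeR adjusted p = 0.02). That call was lost without undifferentiated replicate 1 (0.0597) or 3 (0.0769), without differentiated replicate 2 (0.0533) and without a filter on low counts (0.0546). It was also lost in the larger sequencing project alone (0.192). Between dedifferentiated and undifferentiated cells it was the 1 gene of the 4 called, higher by log2 0.36 (SE 0.08, edgeR adjusted p = 0.00931), where 16.1% of all tested genes were called higher and 13.3% lower. Without dedifferentiated replicate 2 that call was lost too (0.0514), as it was in the larger sequencing project alone (0.15). The list median was 0.18, beside 0.02 for all tested genes. Of the 9 genes that had a row but were not tested, *Pde1b*, *Pde6b*, *Pde6c* and *Pde6h* had no counts. *Pde4c*, the fourth PDE4 gene, had 24 counts in differentiated cells against 3 in undifferentiated cells, a pooled CPM ratio of 7.13 with an exact 95% counting interval of 2.17 to 37.0. *Pde6a*, *Pde8b*, *Pde9a* and *Pde11a* stayed under 0.4 CPM in every library.

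**Figure D3:**
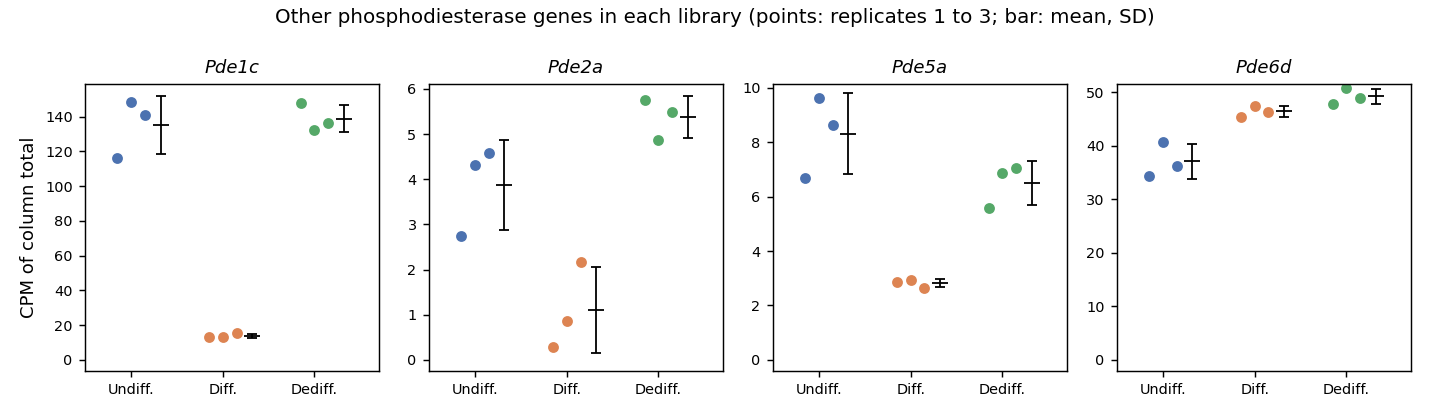
Level in CPM of the column total (vertical axis, from 0, a separate scale per gene) of the 4 tested phosphodiesterase genes outside the set, at the 3 stages, with points for replicates and bars for mean and SD. *Pde1c* lies between 13.1 and 15.2 CPM in differentiated cells and between 116 and 149 CPM in the other libraries.

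Genes that make cyclic AMP or act on its signal were taken from a list of 29, of which 19 were tested. Under dbcAMP 6 rose, 8 fell and 5 did not pass the test, where 31.7% of all tested genes were called higher and 27.9% lower, and the list median was -0.21 beside 0.05 for all tested genes. On withdrawal 6 rose and 3 fell (23.2% of all tested genes in each direction; list median 0.11 beside -0.01). Against undifferentiated cells 4 were higher and 3 lower (16.1% and 13.3% of all tested genes; list median -0.08 beside 0.02). The adenylyl cyclases, which make cyclic AMP, moved in both directions. The calcium-stimulated *Adcy8* measured 24.0, 14.8 and 15.5 CPM in undifferentiated, 0.147, 0 and 0.185 CPM in differentiated, and 12.1, 5.87 and 5.27 CPM in dedifferentiated cells. Its fitted change under dbcAMP was -7.23 on the log2 scale (SE 0.58, edgeR adjusted p = 1.95e-06). The size of this change is poorly fixed, since differentiated replicates 1 to 3 had 2, 0 and 3 counts. *Adcy5* fell from 280 ± 8.11 to 39.8 ± 9.09 CPM (SD, n = 3; log2 -2.87, edgeR adjusted p = 4.78e-08) and stood at 169 ± 8.67 CPM after withdrawal.

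*Adcy3*, *Adcy1* and *Adcy6* rose under dbcAMP by log2 changes of 2.24, 1.24 and 0.83. On withdrawal *Adcy3* had a log2 change of -2.76 (edgeR adjusted p = 4.05e-05), whereas the calmodulin-stimulated *Adcy1* had no called change on withdrawal (log2 0.11, edgeR adjusted p = 0.721). *Gnas*, which encodes the stimulatory G protein subunit, fell from 1026.5 ± 42.1 to 441 ± 6.18 CPM (SD, n = 3) and measured 752 ± 54.5 CPM after withdrawal. *Gnai1*, which encodes an inhibitory subunit, rose from 24.6 ± 2.38 to 95.5 ± 8.27 CPM (log2 1.89, edgeR adjusted p = 5.95e-07) and had no called change on withdrawal (82.5 ± 11.0 CPM; edgeR adjusted p = 0.206). Of the protein kinase A subunits, the regulatory *Prkar2b* fell by 1.92 on the log2 scale and rose by 1.63 on withdrawal. The regulatory *Prkar1a* rose by 0.43 under dbcAMP (edgeR adjusted p = 0.000626) and fell by 0.45 on withdrawal. From the first stage to the last it had no called change (log2 -0.03, edgeR adjusted p = 0.8305). *Gnai3*, another inhibitory subunit gene, was higher in dedifferentiated than in undifferentiated cells (log2 0.40, edgeR adjusted p = 0.00414), a call lost in the larger sequencing project alone (0.0955). *Adcy8* was also lower in dedifferentiated than in undifferentiated cells (log2 -1.27, edgeR adjusted p = 0.0189). That call was lost without undifferentiated replicate 1 (0.0625) or dedifferentiated replicate 2 (0.0664) or 3 (0.076), and in the larger sequencing project alone (0.1315). That of *Adcy6* in the same contrast (log2 0.27, edgeR adjusted p = 0.0319) was lost in 5 of the 9 fits that left out a library, those without undifferentiated replicate 1 or 3 or any dedifferentiated replicate (0.0628 to 0.113), with DESeq2's size factors (0.0563), without a filter on low counts (0.0598) and in the larger sequencing project alone (0.308).

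Of 16 genes listed for cyclic GMP synthesis and effectors, with related receptors and transporters, 14 had a row and 5 were tested. Under dbcAMP 3 fell, 1 rose and 1 did not pass, beside 27.9% of all tested genes called lower and 31.7% higher (list median -0.54, all tested genes 0.05). On withdrawal 3 rose and 0 fell, beside 23.2% in each direction (medians 0.49 and -0.01). Against undifferentiated cells 1 was higher and 1 lower, beside 16.1% and 13.3% (medians -0.18 and 0.02). *Prkg1*, the cyclic GMP-dependent kinase, measured 7.57, 5.38 and 7.20 CPM in undifferentiated, 0.516, 0.540 and 0.555 CPM in differentiated, and 6.02, 4.97 and 7.45 CPM in dedifferentiated cells. It fell by 3.69 on the log2 scale (SE 0.29, edgeR adjusted p = 1.49e-06) and rose by 3.51 (SE 0.29, edgeR adjusted p = 5.76e-06). *Gucy2c*, a receptor guanylyl cyclase, had 71 counts over the undifferentiated and 0 over the differentiated libraries, at least 8.18-fold lower against 3 counts in the shallowest library. It had 14 counts after withdrawal, and with this gene at its bound the medians were unchanged. *Gucy2c* passed the filter on low counts through the undifferentiated libraries alone, so it had to differ. Its calls, included in the counts above, are descriptions and not a test. Its call as lower in dedifferentiated than in undifferentiated cells (edgeR adjusted p = 0.018) was lost without dedifferentiated replicate 2 (0.0557), which took the count of called genes from 2 to 1. The natriuretic peptide receptor gene *Npr2* fell by 0.54 on the log2 scale and rose by 0.49 on withdrawal. Both calls were lost in the larger sequencing project alone (edgeR adjusted p = 0.0547 and 0.101). *Npr3*, the clearance receptor, rose under dbcAMP (log2 0.71, edgeR adjusted p = 0.0267), a call lost without differentiated replicate 2 (0.0634) or 3 (0.0902). It was the 1 gene of this list called higher under dbcAMP, and the 1 called higher in dedifferentiated than in undifferentiated cells. In the larger sequencing project alone both of these *Npr3* calls were lost (0.144 and 0.078).

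Proteins that hold phosphodiesterases or protein kinase A in place were listed with other known partners, 21 genes of which 17 were tested. Under dbcAMP 4 rose, 8 fell and 5 did not pass, against 31.7% of all tested genes called higher and 27.9% lower (list median -0.14, all tested genes 0.05). On withdrawal 7 rose and 2 fell, against 23.2% in each direction (medians 0.12 and -0.01). Between dedifferentiated and undifferentiated cells 1 was higher and 5 lower, against 16.1% and 13.3% (medians -0.18 and 0.02). *Akap6*, which encodes an anchor that binds both protein kinase A and PDE4D, measured 54.4, 68.2 and 67.7 CPM in undifferentiated, 2.36, 1.62 and 1.85 CPM in differentiated, and 45.9, 33.5 and 37.1 CPM in dedifferentiated cells. It fell by 5.08 on the log2 scale (SE 0.19, edgeR adjusted p = 7.86e-09), at the stage where *Pde4d* was high, and rose on withdrawal by 4.33 (SE 0.19). Dedifferentiated cells were below undifferentiated cells (log2 -0.75, edgeR adjusted p = 0.00245), a call lost in the larger sequencing project alone (log2 -0.68, 0.0814). The anchors *Akap12* and *Akap13* fell by 2.19 and 1.18 on the log2 scale and were also lower in dedifferentiated than in undifferentiated cells (log2 -1.34 and -0.72). The rise of *Akap12* on withdrawal (log2 0.85, edgeR adjusted p = 0.0148) was lost without differentiated replicate 1 (0.0527) and in the larger sequencing project alone (0.077). *Arrb2*, an arrestin that carries PDE4 enzymes to receptors, rose by log2 0.76 (edgeR adjusted p = 0.0135). That call was lost without differentiated replicate 2 (0.0517) and in the larger sequencing project alone (0.0703). *Akap5* fell under dbcAMP by 2.08 on the log2 scale (SE 0.52, edgeR adjusted p = 0.0055), with undifferentiated libraries spread from 3.55 to 15.8 CPM. Its rise on withdrawal (log2 1.53, edgeR adjusted p = 0.0356) was lost without differentiated replicate 1 or 2 or dedifferentiated replicate 2 or 3 (0.078 to 0.109). The mitochondrial anchor gene *Akap1* rose by log2 0.45 and fell by 0.41 on withdrawal. Its fall was not called in the larger sequencing project alone (edgeR adjusted p = 0.0594). *Arrb1* fell on withdrawal (log2 -0.81, edgeR adjusted p = 0.000352).

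**Figure D4:**
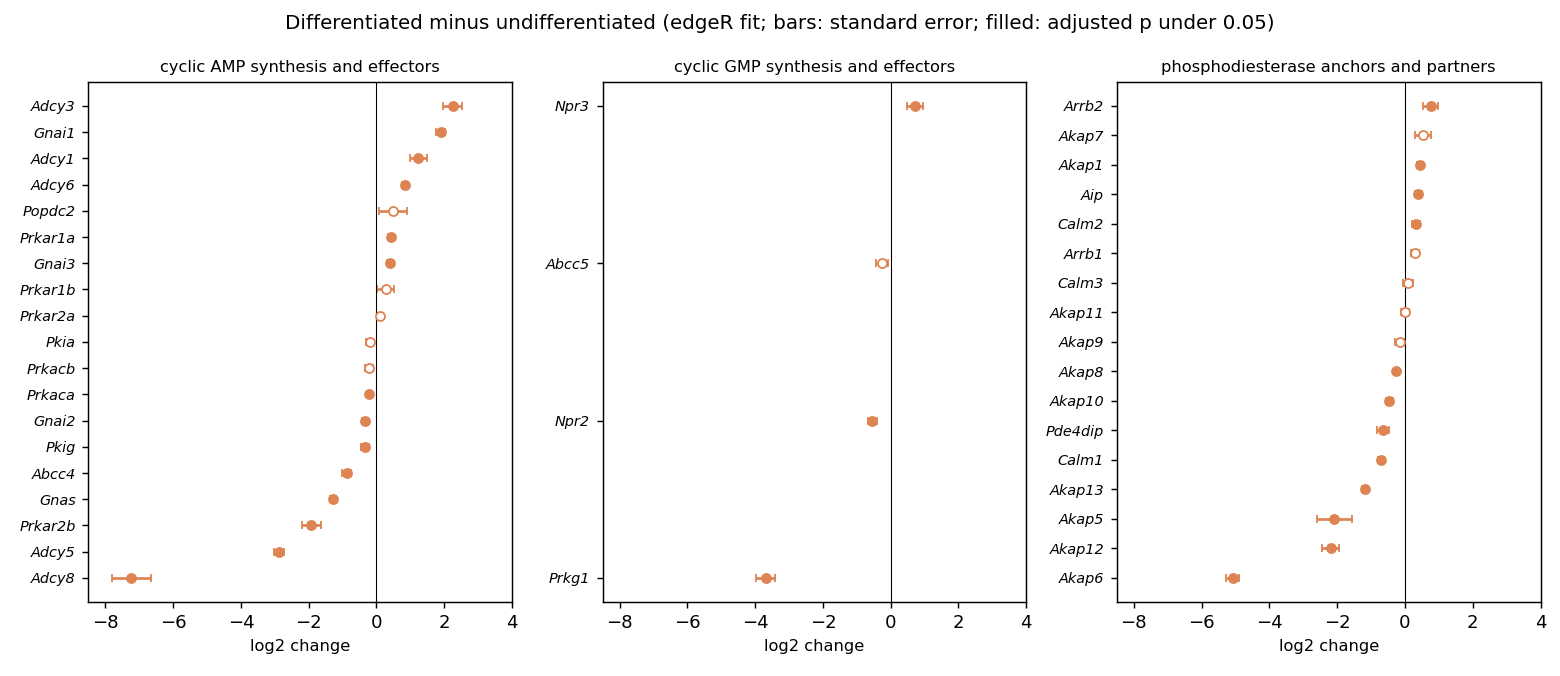
Log2 change in differentiated minus undifferentiated cells (horizontal axis) of the tested genes of 3 lists, with bars for the standard error and filled points for an edgeR adjusted p under 0.05; *Gucy2c* is left out because it had 0 counts in differentiated cells. *Adcy8*, *Akap6*, *Prkg1* and *Adcy5* lie farthest to the left, and *Adcy3* and *Gnai1* farthest to the right. *Adcy8* had 2, 0 and 3 counts in differentiated replicates 1 to 3, so its position is poorly fixed.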

How the data were processed

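Messenger RNA of cultured rat Schwann cells was sequenced in 9 libraries, 3 at each of 3 stages. The values are estimated counts per gene deposited by the authors, made with Salmon per the submitters' processing notes and the table's name. Genome build and annotation are not given in the sources used here. Of the values, 1.15% were fractional, none among the 10 genes, and all were rounded for testing. Columns were matched to samples by library code and stage, since their replicate suffixes disagree with the sample titles, which were followed. CPM used column totals. Libraries were fitted together with edgeR 4.0.16 in R 4.3.3: filterByExpr with a minimum count of 10, TMM scaling, quasi-likelihood test, Benjamini-Hochberg adjustment over all tested genes, threshold 0.05. A standard error is the absolute log2 change divided by the square root of F. Log2 CPM for likeness used a prior count of 2. Members and lists were chosen with earlier results of these data known. The text names genes of the set, other phosphodiesterases, and per list and contrast up to 4 called genes a direction by size of change. Alternatives were the replicate block, DESeq2 1.42.0 size factors and Wald test, column totals alone, 2 other filters, the sequencing project as covariate or its larger part alone (added after seeing the data), and each library left out. Methods were tested on simulated data. The vesicle RNA tables were not used. Counting intervals cover counting error only. Some marker and likeness results are not reported here.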

Additional observations from a re-analysis of the deposited data

How the results depend on the processing

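For the 10 phosphodiesterase genes, 436 recomputed log2 changes moved by less than the spread between replicates and 17 by more, among *Pde7b*, *Pde4a*, *Pde4d* and *Pde3a*. Under dbcAMP the log2 change ranged over the alternatives from 6.52 to 6.98 for *Pde7b* (not computed with at least 10 counts in every library, which removed it), from 2.93 to 3.17 for *Pde4d*, from 2.60 to 2.86 for *Pde10a*, from 2.22 to 2.72 for *Pde4b* and from -2.24 to -1.93 for *Pde7a*. Between dedifferentiated and undifferentiated cells that of *Pde4d* ranged from -0.25 to 0.11, so it has no stable sign.

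The replicate number was not treated as pairing the libraries, and the p-values given come from unpaired fits. The rule used asked that deviations of every same-numbered pair correlate over 0.1, and 7 of 9 did (mean 0.175, lowest 0.028). Other pairs had a mean of -0.084. Deviations were taken from the stage mean, so this value largely follows from that of the same-numbered pairs and is not a separate comparison. The 3 undifferentiated and differentiated pairs were at 0.234 to 0.304, and 8 of 9 libraries correlated best with their own number. Same-numbered libraries were thus more alike than others, and this rule cannot decide whether they were paired. The labels do not state pairing, but replicate 3 of every stage came from another sequencing project. The replicate block gave 6325, 5031 and 3256 called genes against 6179, 4809 and 3045 in the contrasts of differentiated with undifferentiated, dedifferentiated with differentiated and dedifferentiated with undifferentiated cells. It left the counts of other phosphodiesterases (4, 3 and 1), of cyclic AMP genes (14, 9 and 7) and of cyclic GMP genes (4, 3 and 2) as they were, and gave 13, 9 and 7 against 12, 9 and 6 anchors and partners.

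The larger sequencing project alone, with fewer samples, gave 2606 called genes on withdrawal and 1283 between dedifferentiated and undifferentiated cells. In the latter contrast it called 0 other phosphodiesterases, 4 cyclic AMP genes, 0 cyclic GMP genes and 3 anchors and partners. It called 2 cyclic GMP genes under dbcAMP and 1 on withdrawal, and 4 anchors and partners on withdrawal. At least 10 counts in every library left 3 cyclic GMP genes to test and called 2, 1 and 1 in the 3 contrasts. Leaving out 1 library gave 0 to 1 other phosphodiesterases and 1 to 3 cyclic GMP genes between dedifferentiated and undifferentiated cells, and without dedifferentiated replicate 2 these were 0 and 1. For anchors and partners the ranges were 6 to 11 on withdrawal and 5 to 9 between dedifferentiated and undifferentiated cells. Depth limits *Pde1a* at every stage and *Pde3a* outside differentiated cells.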
